A study of Drosophila melanogaster with 140 samples.

Results

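The 10 genes described here encode the core of the synaptic vesicle release machinery of Drosophila: Syt1, nSyb, Syx1A, Snap25, brp, Rim, cac, unc-13, cpx and Syn. They were taken by symbol from a table of raw read counts over 17562 genes and 140 libraries, and all 10 had a row and passed the filter on low counts in every comparison. The series holds N6-methyladenosine (m6A) immunoprecipitation sequencing of heads, RNA-seq of brains and of sorted brain cells, and translating ribosome affinity purification (TRAP) from neurons or glia. The count of a release gene in a library lay between 321 and 389744 reads.

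At a chemical synapse, a vesicle fuses with the presynaptic membrane when the vesicle SNARE protein (nSyb) coils together with the target SNARE proteins (Syx1A and Snap25). The calcium sensor Syt1 triggers fusion, cpx clamps and assists it, and unc-13 primes the vesicle beforehand. The scaffold proteins brp and Rim hold the calcium channel cac at the active zone, and Syn tethers the reserve pool of vesicles. m6A is a methyl mark on adenosines of messenger RNA that is placed by the Mettl3 methyltransferase (Ime4 in the labels), and antibodies to it pull down marked fragments.

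The head m6A groups carried DaGal4, a driver active in all tissues, with Ime4 RNAi (called Mettl3 RNAi here) or Mcherry RNAi (control RNAi) at 34 days and at 5 days (34d and 5d). Each of these 4 groups had 3 pairs of m6A-IP and input libraries from pooled heads of male flies. A separate head experiment used ElavGal4-c155, a neuronal driver, with UAS-AB(2x), which expresses human Aβ42 (2 pairs analysed here), or with UAS-mcd8GFP (3 pairs), at 6 days. Brains of the same Aβ42 and mCD8-GFP genotypes, also at 6 days, were sequenced in 3 libraries each. Sorted cells, 500 per library, were neurons (elavGFP+, ElavGal4 with Ime4 RNAi or mcherry RNAi, 3 libraries at 5d and 4 at 34d per genotype), glia (repoGFP+) and the remaining brain cells (repoGFP-). The repo sorts came from RepoGal4 flies with Ime4 RNAi or mcherry RNAi at 34d and 5d, in 3 libraries per genotype, age and fraction, and the comparisons use the mcherry RNAi ones. The TRAP flies expressed FLAG-tagged RPL3 from ElavGal4 or RepoGal4 with Ime4 RNAi or mcherry RNAi, at 34d and 5d. Each TRAP group had 4 pairs of IP and input libraries, except 3 pairs for control neurons at 5d and for Mettl3 RNAi glia at 5d. Nothing in the labels says whether replicates came from separate crosses, so p-values measure the spread between these libraries. The labels also do not say whether repoGFP+ and repoGFP- libraries of the same number came from the same brains.

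Depth was 20141287 to 36361242 counted reads in the DaGal4 head libraries and 17513035 to 22746821 in the brain and Aβ42 libraries, against 2132983 to 17891755 in the TRAP libraries. In the head inputs, Mettl3 itself was 1.59 log2 units lower with Mettl3 RNAi at 34d (adjusted p = 4.35e-08), and its difference of -0.57 at 5d did not pass the test (adjusted p = 0.468). Mettl3 was also below every control library in sorted neurons, at 0.97 to 1.23 CPM with Mettl3 RNAi and 3.36 to 8.09 CPM with control RNAi at 34d, and at 0.20 to 2.17 CPM and 2.75 to 11.1 CPM at 5d, without passing the test (adjusted p = 0.339 at 34d and 0.864 at 5d). Glial markers summed to 20786 to 28658 CPM (read counts scaled to a common library size) in repoGFP+ cells at 5d and 753 to 801 CPM in repoGFP- cells, and neuron markers reached 5470 to 6627 CPM in those repoGFP+ cells. Glial markers were also present in elavGFP+ control cells at 5592 to 7364 CPM at 5d, so markers of the other class were read in both sorts. Replicate 1 of the control heads at 5d and pair 1 of the control neuron TRAP at 5d stood apart from their groups. Calls that rest on them are given with and without them.

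Levels per kilobase of exon in the control head inputs at 5d ran over a wide range. nSyb stood highest at 263 ± 31.3 CPM per kb (SD, n = 3), and cpx followed at 144 ± 19.0 CPM per kb. Syt1 had 108 ± 18.5 CPM per kb, Snap25 had 70.3 ± 2.76, Syn had 46.6 ± 8.57 and brp had 38.5 ± 5.73 on the same scale. unc-13 (24.1 ± 4.90), Syx1A (20.1 ± 1.73), Rim (15.5 ± 1.80) and cac (10.7 ± 1.22 CPM per kb) were lowest. The neighbours Syn and brp, and unc-13 and Syx1A, differed by less than the larger SD of each pair. In sorted repoGFP- cells at 5d the order differed, with Snap25 highest at 892 ± 66.3 CPM per kb and brp lowest at 32.8 ± 4.88 CPM per kb, although sorted cells and heads were prepared by different kits.

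The genes are spread over the genome (dm6). Syx1A lies on chromosome 3R from 24101600 to 24105763 on the minus strand, and 447 of its exonic bases are shared with eIF4EHP on the same strand. A read that touches both genes is counted for neither in union mode and the shared bases are 10.7% of the Syx1A exonic length. unc-13 lies on chromosome 4 from 867824 to 912331 and shares 28.4% of its exonic length with antisense RNAs, a pseudogene and transposons, and Syn (3R, 10190689 to 10222442) shares 249 bases with Timp on the opposite strand. The strand setting of the counting is not given in the sources used here. If strand was ignored, reads over bases that unc-13 or Syn shares with an opposite-strand gene of the table were counted for neither gene. The other members share 1 exonic base or none with an annotated gene: Syt1 is on 2L (2772327 to 2799979), nSyb on 3L (1630348 to 1637752), Snap25 on 3L (24074180 to 24299205), brp on 2R (9503765 to 9541565), Rim on 3R (17872748 to 17916578), cac on X (11931280 to 11985087) and cpx on 3R (4280221 to 4304604).

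Whether the release genes were among the m6A-enriched messages was read from the m6A-IP/input ratio in control heads. Reads were counted over all exons of a gene, so the ratio does not show where in a message the mark lies. At 5d, 9 of the 10 genes were higher in the m6A-IP than in the input and unc-13 was lower, where 81.2% of all genes passed the test in either direction (37.4% higher, 43.8% lower). Without replicate 1 at 5d, cac did not pass. At 34d, the same direction held for each gene, with 83.8% of all genes passing (38.5% higher, 45.3% lower). The members' median log2 ratio was 0.87 at 5d and 1.25 at 34d, beside -0.14 and -0.17 over all genes tested. The zero point of these ratios is a scaling choice: relative log expression (RLE) scaling moved the median of all genes by 0.13 at 34d. Ratios of single pairs were scaled over all libraries of the head experiment, so their mean can differ from the fitted ratio.

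Of the SNARE genes, Syx1A had the highest ratio of the members. Its log2 m6A-IP/input ratios were 3.50, 3.80 and 3.52 in control heads at 34d and 3.30, 3.28 and 3.55 at 5d, which is a 10.2-fold enrichment at 5d in the fit (log2 3.35, SE 0.10, adjusted p = 2.53e-20). nSyb was enriched by 2.02 at 34d and 1.94 at 5d on the log2 scale, and Snap25 only by 0.74 and 0.49. Among the regulators of fusion, cpx was enriched by 2.66 at 34d and 2.49 at 5d, Syt1 by 1.11 and 0.70, and unc-13 was lower in the m6A-IP (-0.29 at 34d and -0.58 at 5d). brp was the most enriched active zone member (2.48 at 34d, 2.59 at 5d), ahead of Rim (1.40 and 1.04) and cac (0.76 and 0.20). Syn had log2 ratios of 0.65 and 0.57. The 3 SNARE genes thus covered a wide range of ratios, with Syx1A at the top and Snap25 among the lower members.

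Of 51 other release genes tested at 5d, 26 were higher and 11 lower in the m6A-IP, with a median of 0.22. The 8 further active zone genes had 7 higher and none lower, led by Rbp (1.35), a RIM-binding protein, and Fife (1.30), a Rim-like scaffold. All 8 neuron markers were higher as well (median log2 ratio 1.22), so the enrichment of the members moved with that of general neuronal messages, and that relation was not tested further. Glia markers split into 4 higher and 6 lower.

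**Figure D1:**
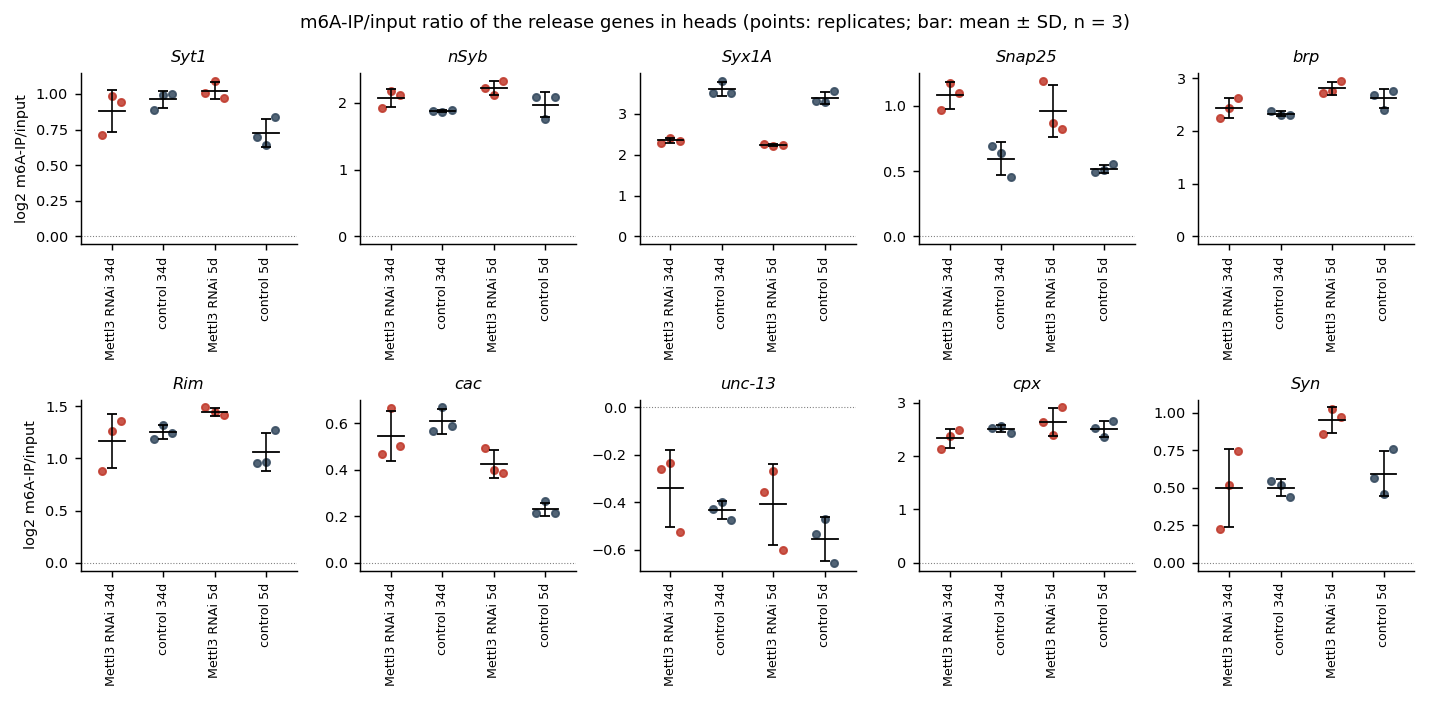
Log2 m6A-IP/input ratio (y axis) of each release gene in heads with Mettl3 RNAi (red) and control RNAi (dark) at 34d and 5d; points are the 3 replicate pairs, bars the mean with its SD. Syx1A is the gene whose Mettl3 RNAi pairs (2.22 to 2.42) all lie well below the control pairs (3.28 to 3.80).

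Knockdown of Mettl3 asks which of these ratios depend on the methyltransferase. Syx1A fell at both ages and was the only member that fell at 5d. Its log2 ratios were 2.29, 2.42 and 2.34 in Mettl3 RNAi heads at 34d, against 3.50, 3.80 and 3.52 in control heads. At 5d they were 2.27, 2.22 and 2.24 in Mettl3 RNAi heads, against 3.30, 3.28 and 3.55 in control heads. The groups did not overlap at either age. The fitted difference was -1.37 at 34d (SE 0.11, adjusted p = 5.51e-10) and -1.14 at 5d (SE 0.11, adjusted p = 3.97e-08), and it passed the test under every alternative run, between -1.41 and -1.24 at 34d and between -1.19 and -1.06 at 5d. Even so, Syx1A kept a ratio above 2 log2 units in every Mettl3 RNAi pair.

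The gene next to Syx1A did not move with it. The ratio of eIF4EHP, a translation factor whose exon overlaps Syx1A, differed by -0.14 at 34d (adjusted p = 0.288) and was higher by 0.37 at 5d (adjusted p = 0.0144). Its log2 ratios at 34d were 1.45, 1.69 and 1.48 in Mettl3 RNAi heads and 1.51, 1.64 and 1.55 in control heads.

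The other SNARE members went the other way or did not pass. Snap25 was higher with Mettl3 RNAi at both ages. Its log2 ratios were 0.96, 1.17 and 1.10 in Mettl3 RNAi heads at 34d, against 0.69, 0.64 and 0.45 in control heads, and 1.19, 0.86 and 0.82 at 5d, against 0.49, 0.51 and 0.55. The fitted difference of Snap25 was 0.37 at 34d (adjusted p = 0.00906) and 0.44 at 5d (adjusted p = 0.00583). For nSyb it was 0.08 at 34d and 0.25 at 5d, neither of which passed the test. In heads at 5d, 4 members passed in all (1 lower, 3 higher), where 19% of all genes passed (14% lower, 5.03% higher). Rim and Syn were the other higher members at 5d, by 0.39 (adjusted p = 0.0154) and 0.36 (adjusted p = 0.0252). At 34d, 3 members passed (2 lower, 1 higher), where 32.3% of all genes passed (19.7% lower, 12.6% higher). cpx was the other lower member at 34d (difference -0.29, adjusted p = 0.0433), with overlapping pairs of 2.14, 2.37 and 2.50 in Mettl3 RNAi heads and 2.52, 2.57 and 2.44 in control heads.

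Only Syx1A held in every one of these fits. At 5d, the 4 calls became 2 without replicate 1 of Mettl3 RNAi or without replicate 1 or 2 of control RNAi, and at 34d Syx1A alone remained without control replicate 3. Under RLE scaling, 39.9% of all calls at 5d were higher, against 26.5% under the scaling used here.

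Other release genes with a lower ratio under Mettl3 RNAi were Syx6, another syntaxin (-1.54 at 34d, -1.11 at 5d), the calcium channel α2δ subunits CG4587 (-1.28 and -0.87) and stj (-1.21 and -0.67), and Sytbeta, a synaptotagmin (-1.56 and -0.81). Fife (-0.89 and -0.32) and the dynamin shi (-0.74 and -0.46) were lower at both ages too. In all, 17 of 51 other release genes were lower and 5 higher at 34d, and 9 were lower and 6 higher at 5d. Of the 8 neuron markers, 4 were lower at 34d, and 2 were lower and 2 higher at 5d.

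With the scaling used here, few of these ratios passed the test between the ages. The authors place the rise of m6A with age in the 5' untranslated region, which a ratio over all exons does not resolve. In control heads, cac was the only member that passed between 34d and 5d, where 23.7% of all genes passed (5.84% higher, 17.8% lower). Its log2 ratios were 0.57, 0.67 and 0.59 at 34d and 0.21, 0.26 and 0.21 at 5d, with no overlap, and the fitted difference was 0.38 (SE 0.10, adjusted p = 0.00642). The count depends on the scaling, since RLE scaling moved the median of all genes by 0.18 and raised the share of higher calls among all calls to 71.1%, against 24.7%. Syt1, Syx1A and Rim were then also higher at 34d, as they were without control replicate 3 at 5d, and DESeq2 added unc-13. Without control replicate 1 at 5d, cac was still the only member that passed, and without replicate 2, brp was lower beside the higher cac. With the replicate block left out, neither cac nor any other member passed, and nearly all calls over all genes were lost. In Mettl3 RNAi heads, no member passed between the ages (3.9% of all genes passed, 1.87% higher and 2.03% lower), with brp and Syn at an unadjusted p below 0.05 and Syn lower in DESeq2. No member had a Mettl3 RNAi effect that differed between 34d and 5d (1.04% of all genes passed), with Syt1, Rim and Syn at an unadjusted p below 0.05. DESeq2 called the effect more negative at 34d for Syt1, Rim and cac. RLE scaling gave 33.1% higher calls in place of 48.0% for the ageing of Mettl3 RNAi heads, and 7.2% in place of 50.0% for the difference of effects. For Syx1A, the difference of the RNAi effects was -0.12 (SE 0.15).

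The inputs of the same pairs give the level of each message. With Mettl3 RNAi at 34d, 9 of 10 members were higher, where 40.8% of all genes passed (21.7% higher). Syx1A had 164, 158 and 137 CPM in Mettl3 RNAi heads at 34d, against 101, 110 and 113 CPM in control heads, a difference of 0.52 on the log2 scale (SE 0.06, adjusted p = 1.59e-05). cac had 231, 218 and 207 CPM in Mettl3 RNAi heads and 152, 173 and 165 CPM in control heads (0.44, adjusted p = 3.86e-06). These groups did not overlap, and neither did those of brp, nSyb, cpx, Rim, Syt1 and Syn. brp (0.35), nSyb (0.34), cpx (0.30), Rim (0.25), Syt1 (0.20), Syn (0.20) and Snap25 (0.15) were higher by less, and unc-13 differed by 0.11 (adjusted p = 0.0804). Without control replicate 3, Snap25 did not pass, and without control replicate 2, unc-13 passed.

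Neuron markers moved the same way in those inputs. All 8 were higher, and their sum was 3451 to 3949 CPM in Mettl3 RNAi heads and 2578 to 2712 CPM in control heads. A larger share of neurons in the RNA and more of each message per neuron cannot be told apart in bulk heads. The active zone list had 7 of 8 genes higher, whereas the fusion list had none higher and 4 of 13 lower. At 5d, by contrast, no member passed (0.173% of all genes passed, 0.134% higher and 0.0384% lower), with differences between 0.08 for Snap25 and 0.19 for cpx, none at an unadjusted p below 0.05 and none called by DESeq2. Those differences include control replicate 1, the lowest control library for all 10 members. Syn had 279, 290 and 302 CPM with Mettl3 RNAi, against 213, 297 and 301 CPM with control RNAi. For cpx these were 1773, 1856 and 1999 CPM, against 1408, 1696 and 1832 CPM. Leaving out any 1 library also gave 0 members that passed.

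**Figure D2:**
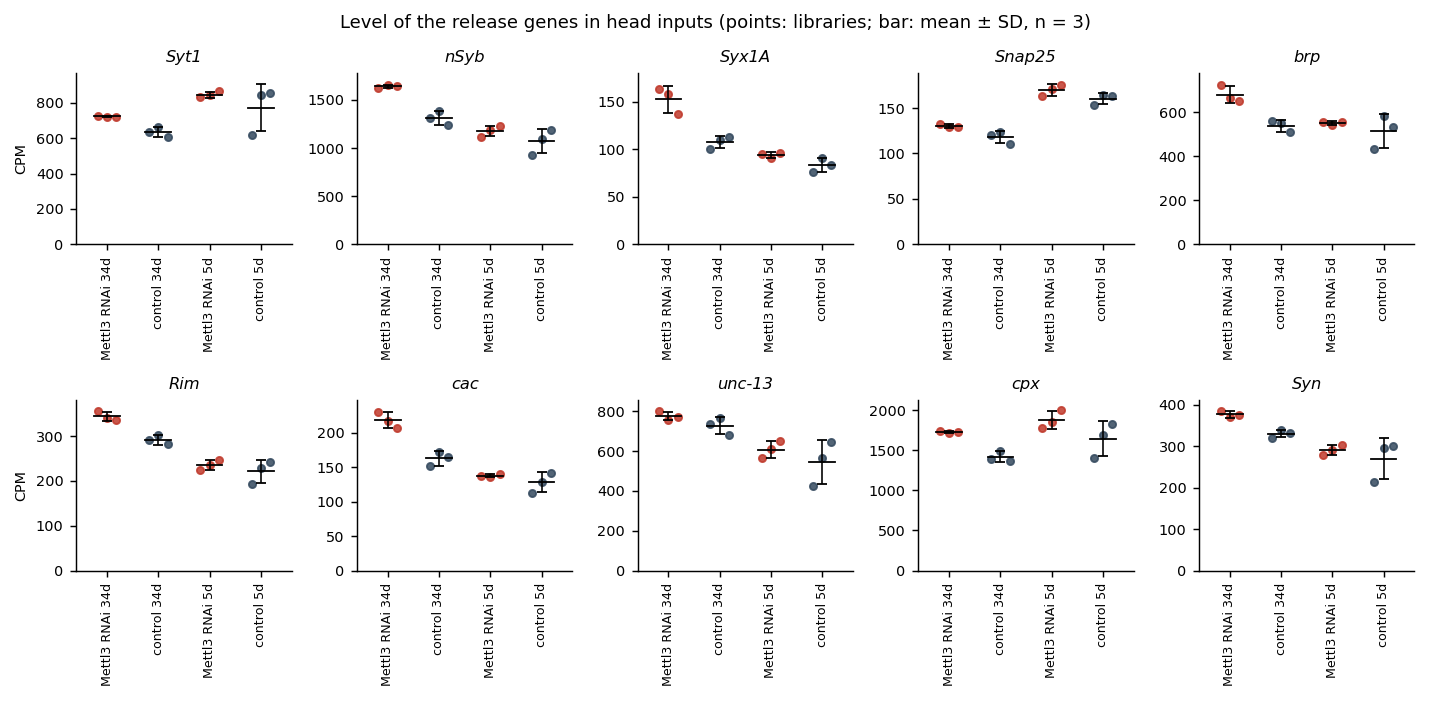
Level in CPM (y axis, from 0) of each release gene in head input libraries with Mettl3 RNAi (red) and control RNAi (dark) at 34d and 5d; points are libraries, bars the mean with its SD (n = 3). At 34d the Mettl3 RNAi libraries of Syx1A (137 to 164 CPM) and cac (207 to 231 CPM) lie above all control libraries, as do those of brp, nSyb, cpx, Rim, Syt1 and Syn.

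In control heads, Snap25 was the only member whose level passed the test between the ages, where 51.5% of all genes passed (23.5% higher, 27.9% lower). It had 120, 124 and 110 CPM at 34d and 153, 165 and 163 CPM at 5d, a fall by 0.57 on the log2 scale (SE 0.08, adjusted p = 0.00157). The 5d libraries of the other members were wide apart: Syt1 had 634, 663 and 609 CPM at 34d, against 620, 843 and 857 CPM at 5d. Replicate 1 was the lowest of the 5d libraries for all 10 members, and without that library Syt1, Snap25 and cpx were lower and Rim higher at 34d. Without replicate 2 at 5d, Syx1A was higher and Snap25 lower. In Mettl3 RNAi heads, all 10 members passed, where 71.8% of all genes passed (34.6% higher, 37.1% lower). Syt1 (-0.31), Snap25 (-0.47) and cpx (-0.20) were lower at 34d, and the other 7 were higher, by 0.22 for brp to 0.62 for Syx1A. Muscle markers summed to 2060 to 2106 CPM in control heads at 34d and 5522 to 10059 CPM at 5d, and their part in these differences was not tested.

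The Aβ42 heads address the same ratios in a model of amyloid toxicity driven by ElavGal4-c155. Syx1A, nSyb, cpx and brp had higher m6A-IP/input ratios with Aβ42, where 24.4% of all genes passed (9.54% higher). Syx1A had log2 ratios of 2.32 and 2.36 with Aβ42, against 1.97, 1.69 and 1.64 with mCD8-GFP, a difference of 0.57 (SE 0.09, adjusted p = 3.49e-05). nSyb had 1.33 and 1.20, against 1.08, 0.85 and 0.84 (0.34, adjusted p = 0.00740). cpx was higher by 0.33 (adjusted p = 0.0159) and brp by 0.26 (adjusted p = 0.0368). Without mCD8-GFP replicate 2 or 3, only Syx1A passed, while without mCD8-GFP replicate 1 Syt1 and Rim passed too. eIF4EHP was higher by 0.32 as well (adjusted p = 0.00534). RLE scaling gave 58.7% higher calls over all genes in place of 39.2%.

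Input levels of 7 of the 10 members were lower in the same Aβ42 heads, where 36% of all genes passed (17.5% lower). These were Syt1 (-0.41), unc-13 (-0.32), brp (-0.30), cpx (-0.29), Rim (-0.28), Syx1A (-0.28) and nSyb (-0.20). Syt1 had 853 and 783 CPM with Aβ42, against 1092, 1046 and 1117 CPM with mCD8-GFP, with no overlap (adjusted p = 2.10e-04). Syx1A, whose ratio was higher, had 154 and 124 CPM with Aβ42, against 163, 169 and 174 CPM. The remaining 3 had differences of -0.19 (Syn), -0.15 (Snap25) and -0.15 (cac). With mCD8-GFP replicate 3 left out, 3 members passed (Syt1, unc-13 and cpx), and with mCD8-GFP replicate 1 left out, 4 passed. Leaving out an Aβ42 replicate leaves 1 library in that group, so counts from those fits are not given. Among other release genes, 20 of 51 were lower and 3 higher, with Rab3, a vesicle GTPase, higher by 0.49 and Fife lower (-0.44).

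In dissected brains, 2 members passed, where 31% of all genes passed (15% lower). Syt1 had 1690, 1565 and 1500 CPM with Aβ42, against 1986, 2106 and 2047 CPM with mCD8-GFP, a difference of -0.37 (SE 0.06, adjusted p = 0.00405). unc-13 was lower by 0.19, at the threshold itself, and did not pass when any library but Aβ42 replicate 1 was left out. Without Aβ42 replicate 1, 7 members were lower: Syt1, nSyb, Syx1A, brp, Rim, cac and unc-13. Syn differed by 0.09 and cpx by -0.04. Of the other release genes, 11 of 51 were lower and 5 higher, and Rab3 (0.48) and Fife (-0.28) had the same direction as in heads.

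Cell type markers were lower beside them. In head inputs, neuron markers summed to 3528 to 4158 CPM with Aβ42 and 4487 to 4801 CPM with mCD8-GFP, and 6 of 8 were lower. Neuron markers summed to 8897 to 10752 CPM with Aβ42 and 11224 to 11528 CPM with mCD8-GFP in brains, and 3 of 8 were lower. In the same brains, photoreceptor markers summed to 28326 to 36203 CPM with Aβ42 and 51248 to 56560 CPM with mCD8-GFP, with 7 of 8 lower. Among glia markers, 5 of 10 were lower in brains and 7 of 10 in head inputs. The part of cell composition in the member values was not tested.

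**Figure D3:**
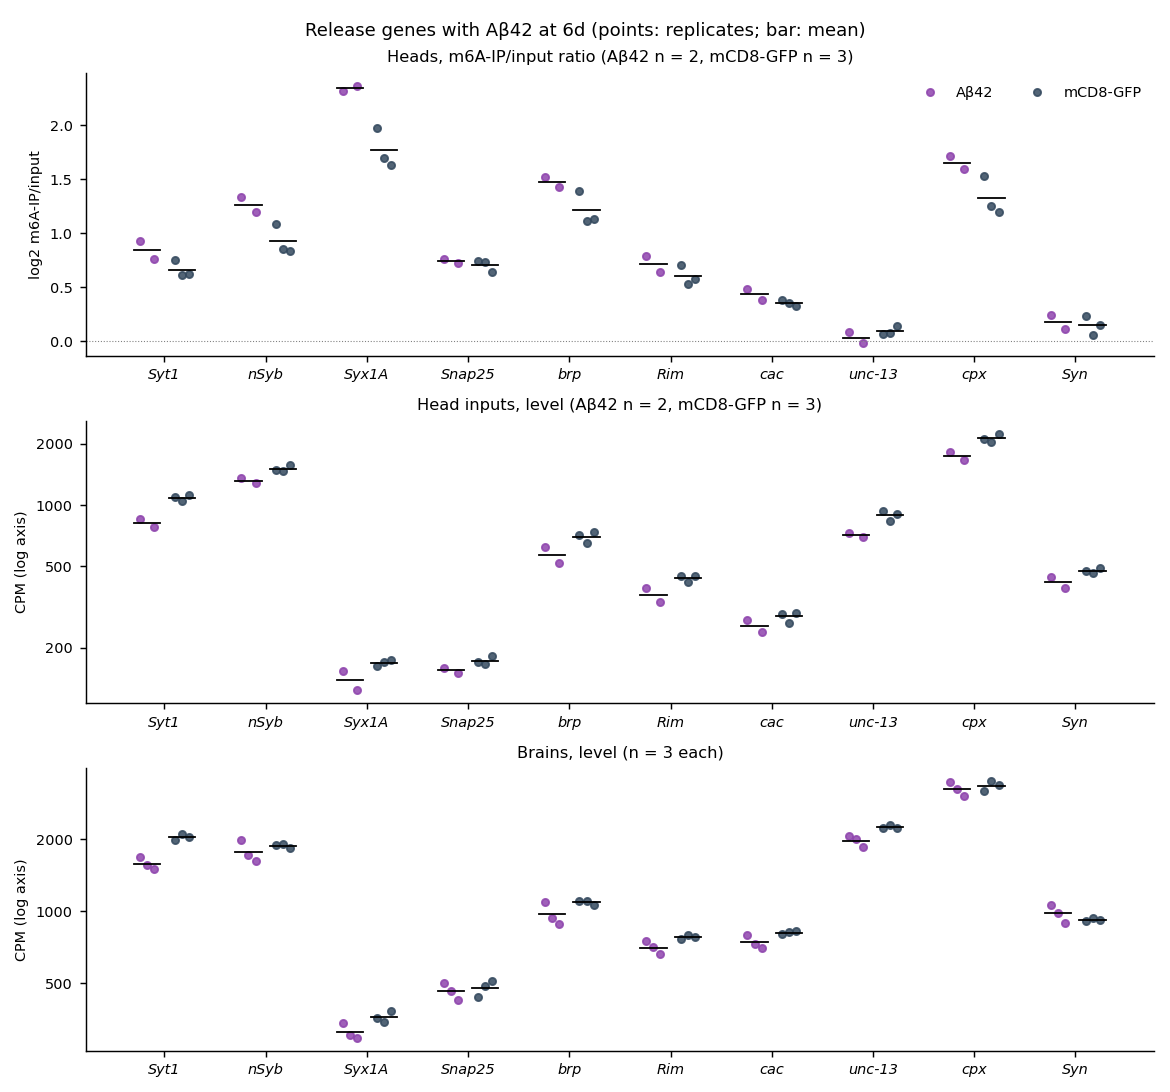
Release genes with Aβ42 (purple) and mCD8-GFP (dark) at 6 days: log2 m6A-IP/input ratio in heads (top), level in head inputs (middle) and level in brains (bottom), the levels in CPM on log axes; points are replicates and lines their means. Syx1A has the widest gap in the ratio (2.32 and 2.36 against 1.64 to 1.97), and Syt1 is below all mCD8-GFP libraries in both heads and brains.

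In sorted neurons (elavGFP+), 3 members fell between 34d and 5d in control flies, where 4.35% of all genes passed (1.71% higher, 2.65% lower). cpx had 3126, 3191, 3027 and 3616 CPM at 34d, against 4939, 5708 and 4978 CPM at 5d (-0.68, SE 0.08, adjusted p = 0.00193). cac had 682, 693, 634 and 698 CPM at 34d, against 1079, 999.7 and 1028 CPM at 5d (-0.61, adjusted p = 0.00280). Syx1A had 908, 900, 1005 and 850 CPM at 34d, against 1275, 1674 and 1207 CPM at 5d (-0.59, adjusted p = 0.0225). None of the 3 genes overlapped between the ages. cpx and cac passed whichever library was left out, whereas Syx1A did not without replicate 1, 3 or 4 at 34d or replicate 1 or 2 at 5d. The difference for Syn was positive and did not pass (0.89, SE 0.29, adjusted p = 0.127), with 388, 615, 472 and 217 CPM at 34d and 193, 275 and 219 CPM at 5d. Glia markers summed to 2628 to 3535 CPM at 34d and 5592 to 7364 CPM at 5d in these libraries, and 1 of 10 was lower, while 1 of 8 neuron markers was lower. Of the other release genes, 11 of 51 were lower and 1 higher, among the lower ones Rop, the syntaxin-binding protein (-0.67), and AP-2mu, a clathrin adaptor subunit (-0.86).

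In sorted neurons no member passed the test of Mettl3 RNAi against control RNAi. At 34d, 0 of 10 members passed (0.0366% of all genes passed), none at an unadjusted p below 0.05 and none in DESeq2. At 5d no gene of 10464 passed in edgeR (571 at an unadjusted p below 0.05, and 45 past the threshold in DESeq2, no member under either), and 0% were called. Syx1A, whose m6A ratio fell in heads, had 787, 1002, 946 and 950 CPM in Mettl3 RNAi neurons at 34d, against 908, 900, 1005 and 850 CPM in control neurons, a difference of 0.02 (SE 0.10). brp differed by 0.36 at 5d (SE 0.19) and Syn by -0.54 (SE 0.29).

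Glia and the remaining brain cells differed in 5 members at 5d, where 18.1% of all genes passed (4.77% lower). nSyb had 1451, 1522 and 1637 CPM in repoGFP+ cells, against 2014, 2182 and 2647 CPM in repoGFP- cells (-0.59, SE 0.12, adjusted p = 0.0138). brp (-0.58), Syt1 (-0.49), cac (-0.48) and Rim (-0.39) were lower in repoGFP+ cells too, whereas Syx1A differed by -0.07 and cpx by -0.25. Leaving out 1 library left between 0 and 4 of these calls: none without repoGFP+ replicate 1, only nSyb without repoGFP+ replicate 3 or repoGFP- replicate 2 or 3, and nSyb and cac without repoGFP+ replicate 2. Of the neuron markers, 5 of 8 were lower in repoGFP+ cells, with sums of 5470 to 6627 CPM against 7891 to 8926 CPM in repoGFP- cells. With the replicate number as a block, which joins the sorted fractions of 1 number, only nSyb passed. Of the other release genes, 16 of 51 were lower in repoGFP+ cells and 3 higher, and Amph, an amphiphysin, was among the higher ones (2.49).

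At 34d no member passed the test between repoGFP+ and repoGFP- cells (6.69% of all genes passed), with differences from -0.34 for Rim, alone at an unadjusted p below 0.05, to 0.18 for unc-13. No member passed the test of whether the difference between cell classes changed with age (0.0305% of all genes passed), with nSyb, Snap25, cac and unc-13 at an unadjusted p below 0.05. DESeq2 called no member in either test. Glia markers summed to 6014 to 10925 CPM in control repoGFP+ cells at 34d, against 20786 to 28658 CPM at 5d. The part of this shift in the member values was not tested. No member passed with age within repoGFP- cells (1.2% of all genes passed) or within repoGFP+ cells (0.12%), where 5 and 3 members had an unadjusted p below 0.05. In repoGFP- cells, cpx came nearest, with 2663, 2963 and 2588 CPM at 34d against 3332, 3988 and 3848 CPM at 5d (-0.44, adjusted p = 0.0512), and DESeq2 called nSyb, Syx1A and cpx lower there, but no member in repoGFP+ cells. Without replicate 1 at 5d, cpx passed.

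**Figure D4:**
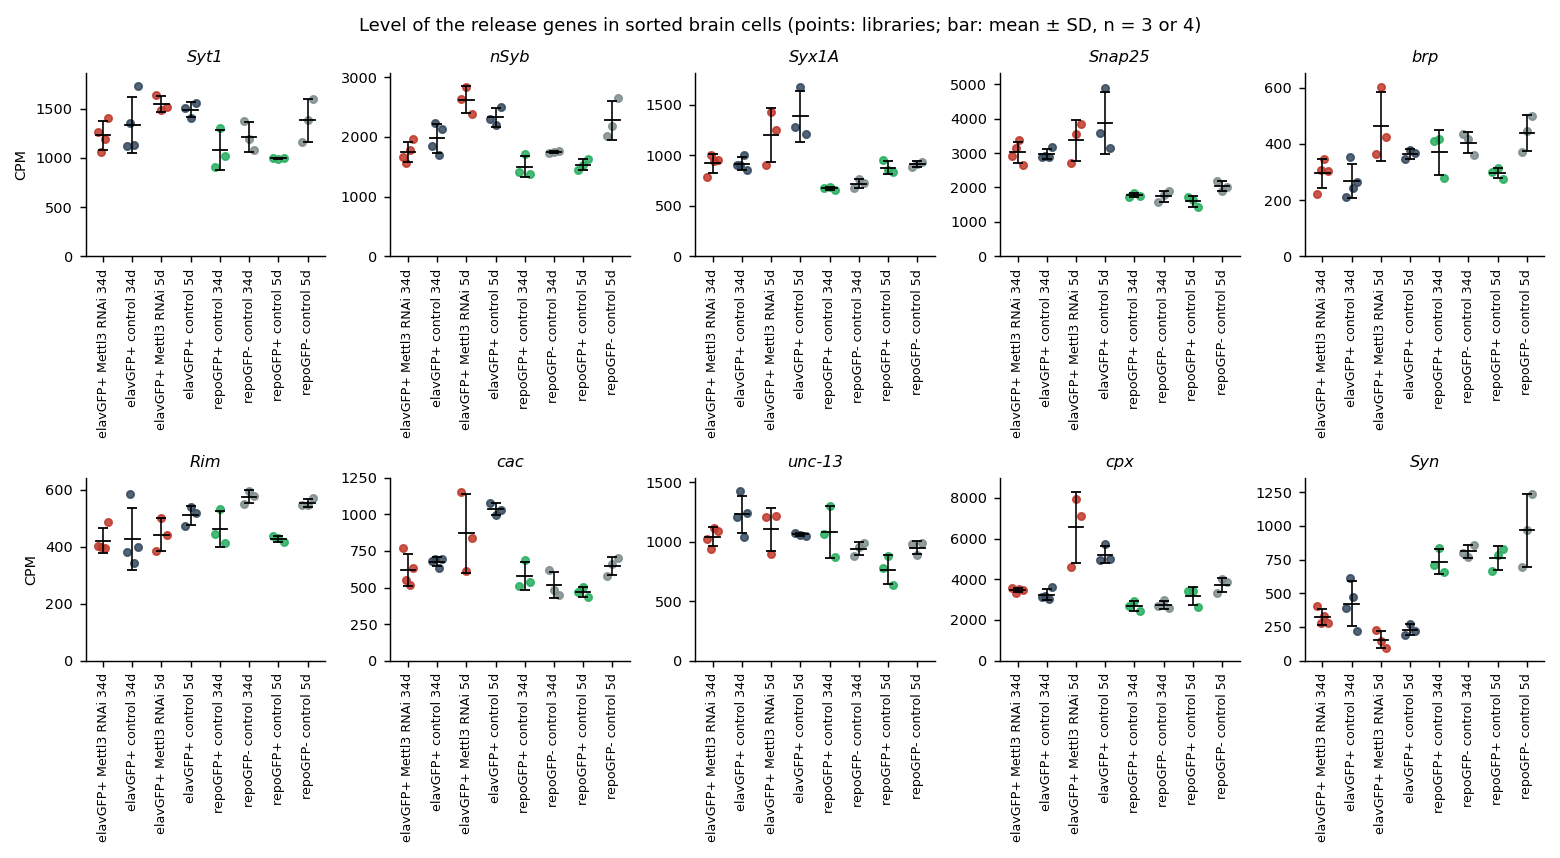
Level in CPM (y axis, from 0) of each release gene in sorted brain cells: elavGFP+ neurons with Mettl3 RNAi (red) and control RNAi (dark), and control repoGFP+ glia (green) and repoGFP- cells (grey), at 34d and 5d; points are libraries, bars the mean with its SD (n = 3 or 4). The elavGFP+ and repo sorts are separate experiments; within elavGFP+ control cells, cpx and cac lie lower at 34d (3027 to 3616 and 634 to 698 CPM) than at 5d.

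TRAP recovers messages bound to FLAG-tagged ribosomes of 1 cell class, whereas the input is a part of the whole brain homogenate. The TRAP-IP/input ratio thus sets ribosome-bound message of that class against total message of all brain cells. It mixes enrichment of the cell class with ribosome binding within it. Directly comparing the TRAP-IPs of neurons with those of glia in control flies, Snap25 was higher in neurons at both ages, by 0.76 at 34d (adjusted p = 0.00825) and 1.56 at 5d (adjusted p = 1.77e-04). Snap25 had 654, 680, 708 and 705 CPM in neuron IPs at 34d, against 380, 293, 381 and 551 CPM in glia IPs, and 1005, 641 and 731 CPM at 5d, against 303, 289, 285 and 233 CPM. At 5d, brp was higher (0.96) and Syn lower (-1.07) in neuron IPs, so 3 members passed where 33% of all genes passed (16.3% higher, 16.7% lower). Syn had 211, 202 and 200 CPM in neuron IPs at 5d, against 426, 440, 420 and 484 CPM in glia IPs. At 34d, 4 members passed where 20.2% of all genes passed (7.86% higher, 12.3% lower), with Rim (-0.57), cac (-0.70) and unc-13 (-0.70) lower in neuron IPs. The brp value at 5d rests on replicate 1 of control neurons (1501 CPM, with 597 and 620 CPM in the other IPs): without it, brp did not pass and Syx1A was lower. brp also failed without glia replicate 2, 3 or 4. At 34d, only Snap25 and unc-13 passed without neuron replicate 1 or 4 or glia replicate 1 or 2. Among other release genes at 5d, 12 of 51 were higher and 7 lower in neuron IPs.

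Glia IPs were not free of neuronal messages. Neuron markers summed to 5432 to 8651 CPM in the IPs of control glia at 5d and 1970 to 2984 CPM in their inputs, and 7 of 8 were higher in the IP. In control glia at 5d, all 10 members differed between IP and input, where 56.4% of all genes passed (28.8% higher, 27.6% lower). cac (2.36), Rim (1.56), unc-13 (1.28), brp (1.21), Syn (0.98), Syx1A (0.57) and Syt1 (0.38) were higher in the IP, and Snap25 (-0.77), cpx (-0.70) and nSyb (-0.67) were lower. Syt1 did not pass without pair 1 or pair 4. At 34d, 6 members were higher in the glia IP and none lower, where 19.3% of all genes passed (11% higher). Syn was lost from these without pair 2 or pair 3, and nSyb was lower without pair 4.

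In control neurons at 34d, all 10 members also differed between IP and input, where 52.8% of all genes passed (26.2% higher, 26.6% lower). cac (1.13), Snap25 (0.96), brp (0.86), Rim (0.77), Syt1 (0.61), unc-13 (0.59) and Syn (0.40) were higher, and nSyb, Syx1A and cpx were lower (-0.27 each). Syx1A did not pass without pair 1 or pair 4. At 5d, brp (1.17), Rim (1.89) and cac (1.44) were higher, where 11.1% of all genes passed (5.46% higher). Pair 1 of these neurons stood apart, with a log2 ratio of 3.17 for Rim (1.22 and 1.24 in the other pairs) and 0.53 for Syx1A (-0.56 and -0.61). Without it 8 members passed, 5 higher (with Snap25 and unc-13) and 3 lower (nSyb, Syx1A and cpx). cac, Rim, brp and unc-13 thus had higher ratios than nSyb and cpx in both cell classes.

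Few members passed the test of Mettl3 RNAi on the TRAP ratio. Mettl3 itself, at 3 to 175 reads per TRAP library, did not separate the genotypes in the IPs. It had 0.62 to 6.69 CPM in Mettl3 RNAi neuron IPs at 34d, against 1.88 to 14.2 CPM in control IPs, and 0.52 to 3.55 CPM at 5d, against 3.01 to 7.51 CPM. In glia IPs it had 0.92 to 8.73 CPM with Mettl3 RNAi at 34d, against 1.63 to 9.49 CPM with control RNAi, and 0.82 to 3.49 CPM at 5d, against 3.30 to 5.22 CPM. In the inputs the genotypes were apart at 34d in both cell classes but overlapped at 5d, so the libraries are taken as Mettl3 RNAi by their labels. In neurons no member passed at 5d (1.54% of all genes passed), 5 had an unadjusted p below 0.05, and DESeq2 called nSyb and cac higher. nSyb (0.67, adjusted p = 0.111), Syx1A (0.75, adjusted p = 0.165), brp (0.66, adjusted p = 0.158) and cac (0.83, adjusted p = 0.0537) had positive differences that missed the threshold. cac had log2 ratios of 2.38, 2.05, 2.02 and 2.34 in Mettl3 RNAi neurons at 5d, against 1.38, 1.28 and 1.54 in control neurons, with no overlap. Without control pair 1, nSyb, Syx1A, brp, cac and unc-13 were higher with Mettl3 RNAi. At 34d no gene of 10110 passed in neurons (0% called, 851 at an unadjusted p below 0.05, 25 in DESeq2 with no member), with 0.55 for Syx1A and -0.52 for cpx. Without Mettl3 RNAi pair 4 at 34d, Syx1A, brp and cac were higher and cpx lower.

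In glia at 5d, Syt1 was lower with Mettl3 RNAi and was the only member to pass, where 0.654% of all genes passed (0.518% lower). Syt1 had log2 ratios of -0.45, -0.53 and -0.50 in Mettl3 RNAi glia, against 0.63, 0.13, 0.03 and 0.58 in control glia, with no overlap (-0.86, SE 0.17, adjusted p = 0.0318). The other members but Syn had differences between -0.91 (cac) and -0.48 (Syx1A) with adjusted p from 0.0543 to 0.170, and Syn had 0.20. DESeq2, and edgeR without the filter, called 8 members lower there, while leaving out Mettl3 RNAi pair 2 or 3 or control pair 2 left none and leaving out control pair 4 gave 4. Another 5 of 51 release genes were lower and none higher, among them stj (-1.04), Rbp (-0.98) and Cadps, a priming factor (-0.93). The IPs of Mettl3 RNAi glia held more glial and less neuronal message than those of control glia: glia markers summed to 23691 to 27554 CPM, against 12178 to 20432 CPM, and neuron markers to 3558 to 4391 CPM, against 5432 to 8651 CPM. The part of this shift in the member ratios was not tested. At 34d no gene of 9946 passed in glia (0% called, 479 at an unadjusted p below 0.05, 20 in DESeq2 with no member).

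The Mettl3 RNAi effect differed between neurons and glia at 5d in 6 members, where 3.6% of all genes passed (3.15% higher). The difference of the effects, neurons minus glia, was 1.78 for cac (SE 0.32, adjusted p = 0.00247), 1.42 for brp, 1.28 for nSyb, 1.28 for Syx1A, 1.25 for unc-13 and 1.17 for Syt1. Snap25 (0.79), Rim (0.71), cpx (0.43) and Syn (-0.04) did not pass. Of the other release genes 13 of 51 were higher, and 6 of 8 neuron markers were higher too, with a median of 1.49 beside 1.21 for the members. Without control neuron pair 1, Rim passed as well, and without control glia pair 1 only nSyb, brp and cac passed. nSyb and cac alone passed without the replicate block. At 34d no gene of 10539 passed (0% called, 577 at an unadjusted p below 0.05, 3 in DESeq2 with no member).

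**Figure D5:**
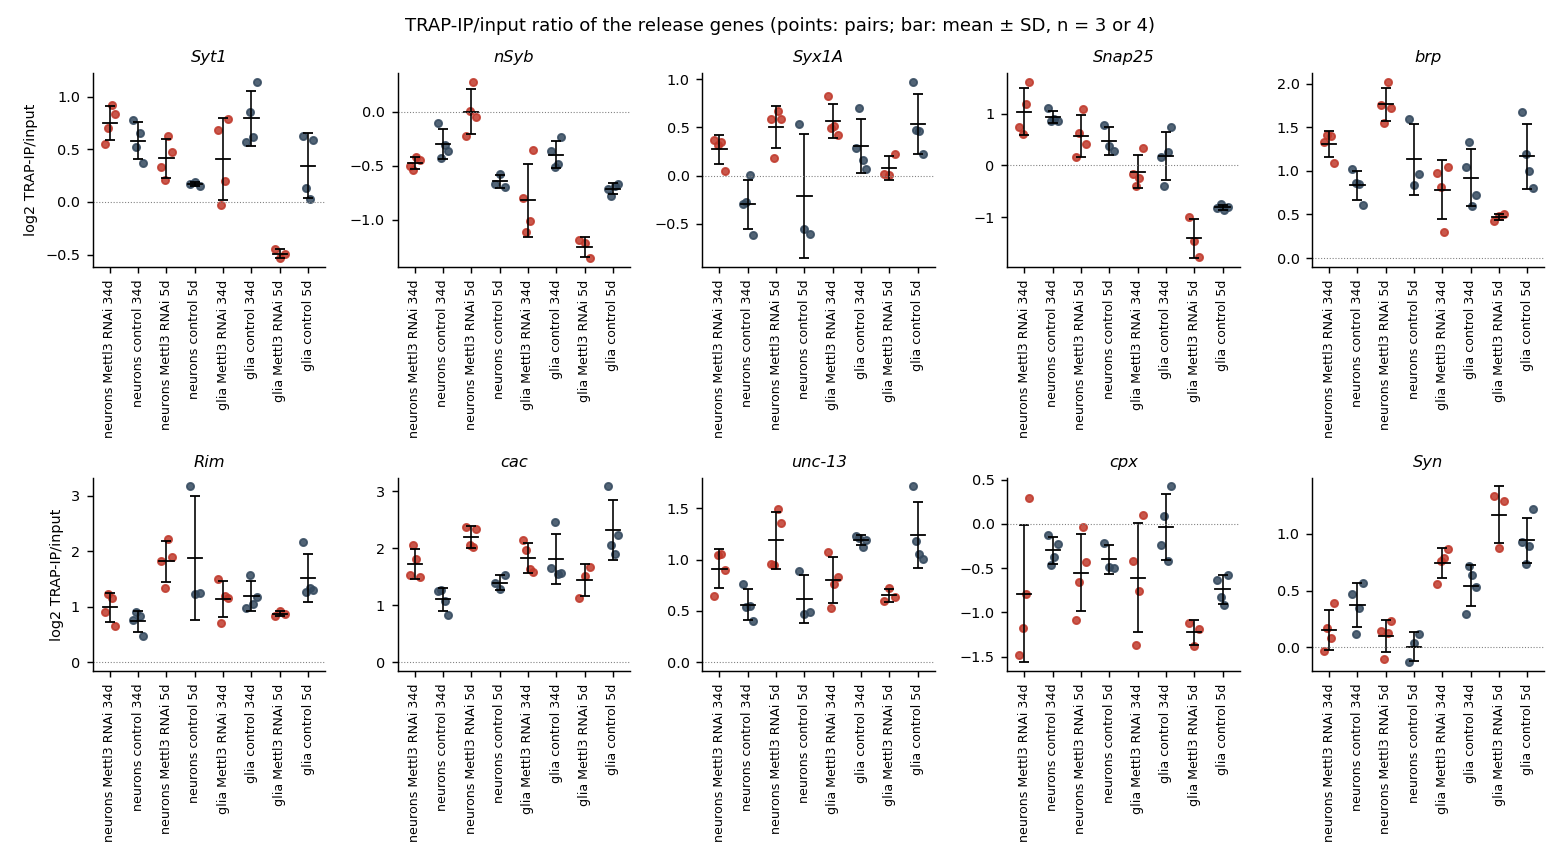
Log2 TRAP-IP/input ratio (y axis) of each release gene in neurons (ElavGal4) and glia (RepoGal4) with Mettl3 RNAi (red) and control RNAi (dark) at 34d and 5d; points are pairs, bars the mean with its SD (n = 3 or 4). Syt1 in Mettl3 RNAi glia at 5d (-0.53 to -0.45) lies below all control glia pairs (0.03 to 0.63), and Rim in control neurons at 5d has 1 pair at 3.17.

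Across 36 group means of log2 CPM, centred within 7 sets of libraries, the members did not follow 1 profile. Pearson correlations between pairs of members ran from -0.66 to 0.78 with a median of 0.41, as a description over groups that share experiments and, in part, flies. brp followed the mean of the other members most closely (0.80), Snap25 loosely (0.39) and Syn inversely (-0.45). The other genes whose profiles were most like the members' mean, among 5021 genes, were Rdl (0.89), a GABA receptor subunit, Asator (0.88), a tau tubulin kinase homologue, Ca-alpha1T (0.88), a T-type calcium channel, GABA-B-R1 (0.88), a metabotropic GABA receptor, and Sh (0.85), the Shaker potassium channel.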

How the data were processed

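The authors trimmed reads with Trim Galore, aligned them to dm6 with STAR 2.7.3a and counted them over exons of FlyBase genes with summarizeOverlaps in union mode, and deposited raw counts per gene for all libraries. Whether counting used strand is not given in the sources used here. Each replicate of the m6A-IP and TRAP libraries has an input of the same number, which was fitted as a block in the ratio comparisons. Counts were tested with edgeR 4.0.16 in R 4.3.3 (TMM scaling, filterByExpr, robust quasi-likelihood test), per comparison over the libraries it involves, and p-values were adjusted by Benjamini-Hochberg over all genes tested, with a threshold of 0.05. Fold changes are log2 values, and "passed" means an adjusted p under that threshold. CPM and log2 ratios of single libraries use TMM factors over all libraries of an experiment and a prior count of 2 (for the ratios), so they can differ from the fitted values.

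In all, 34 comparisons were made, with 419 alternative fits: DESeq2 1.42.0, RLE scaling, no filter, a mean count of at least 50, the block left out or added, each replicate left out, 1 factor of unwanted variation (sorted cells) and replicates 1 to 3 alone (TRAP). Unless stated, the share of all genes that passed belongs to the edgeR fit over all libraries of a comparison. Counts of members in alternative fits thus have no such share beside them. The procedure was tested on simulated data. The least deep TRAP library had 2132983 counted reads, and replicates differed by more than counting error (chi-square per gene of 5.9 to 303.8 between replicate pairs). All 10 members were named in every comparison, with up to 2 genes per list of other release genes, those of lowest adjusted p. The members and lists were chosen with earlier results of these data known. The authors' own test results were not used, and a further Aβ42 m6A pair was not analysed here.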

Additional observations from a re-analysis of the deposited data

Results flagged for a closer look

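In groups of 4, a library far from its group was seen in 6 of 80 sets of values, where chance gives about 1 in 20. The log2 TRAP-IP/input ratio of Rim was 2.16 in pair 1 of control glia at 5d (1.27 to 1.34 in the other pairs), and that of cac was 2.47 in pair 2 of control glia at 34d (1.56 to 1.66 in the others). The ratio of Snap25 was 1.1 in pair 1 of control neurons at 34d (0.86 to 0.89 in the others). Syx1A had a ratio of 0.0526 in pair 4 of Mettl3 RNAi neurons at 34d (0.32 to 0.37 in the others), the pair without which Syx1A, brp and cac were higher with Mettl3 RNAi. In sorted neurons at 34d, Snap25 had 3184 CPM in control replicate 3 (2894 to 2928 CPM in the others) and Rim had 488 CPM in Mettl3 RNAi replicate 3 (396 to 402 CPM in the others).

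A test of the difference singled out 6 members whose TRAP ratio responded to Mettl3 RNAi differently in neurons and in glia at 5d: cac (1.78), brp (1.42), nSyb (1.28), Syx1A (1.28), unc-13 (1.25) and Syt1 (1.17), each in log2 units, neurons minus glia. Over all genes 3.6% passed that test, as did 6 of 8 neuron markers with a larger median (1.49, against 1.21 for the members), and without the replicate block only nSyb and cac passed.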

How the results depend on the processing

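No member that passed turned its direction under the 419 alternative fits. Differences that did not pass are not covered by that statement. Over members and fits, calls were kept in 1068 cases and lost in 146, and members that had not passed stayed so in 2853 cases and passed in 123. The fall of the Syx1A m6A ratio with Mettl3 RNAi was among those that held throughout. The counts of members that passed moved as follows, and the cause was not tested. With DESeq2 they were 5 for the m6A ratio with age in control heads (1 in edgeR), 1 with age in Mettl3 RNAi heads (0), 3 for the difference of RNAi effects with age (0), 4 for head inputs with age (1), 4 for brains with Aβ42 (2), 3 for repoGFP- cells with age (0), 5 for TRAP in control neurons at 5d (3), 2 for Mettl3 RNAi in neurons at 5d (0) and 8 in glia at 5d (1). RLE scaling gave 4 for the m6A ratio with age. Without a filter the counts were 3 for the m6A ratio with age in control heads, 2 in Mettl3 RNAi heads, 1 for brains with Aβ42, 3 for repoGFP+ against repoGFP- cells at 5d, 2 for repoGFP- cells with age, 1 for Mettl3 RNAi TRAP in neurons at 5d and 8 in glia. A mean count of at least 50 gave 1 for brains, 1 for repoGFP- cells with age and 2 for glia TRAP at 5d. Replicates 1 to 3 alone gave 2 for neuron against glia IPs at 34d, 1 for Mettl3 RNAi in neurons at 34d and 4 in glia at 5d.

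Without the replicate block the counts were 1 for the m6A ratio with Mettl3 RNAi at 5d (4 with the block), 0 for the m6A ratio with age in control heads (1), 1 for the Aβ42 ratio (4), 0 for Mettl3 RNAi TRAP in glia at 5d (1) and 2 for its difference between neurons and glia (6). In the level comparisons, replicate numbers did not pair the libraries by the correlation of same-numbered deviations (-0.31 to 0.15), and adding the replicate block gave 1 for brains with Aβ42 (2 without it) and 1 for repoGFP+ against repoGFP- cells at 5d (5).

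With 1 replicate left out, counts ran from 2 to 5 for the m6A ratio with Mettl3 RNAi at 5d, 1 to 3 at 34d, 1 to 4 with age in control heads, 0 to 1 with age in Mettl3 RNAi heads and 0 to 1 for the difference of effects. They ran from 1 to 4 for head inputs with age, 1 to 6 for the Aβ42 ratio, 3 to 10 for Aβ42 inputs, 1 to 7 for Aβ42 brains, 0 to 4 for repoGFP+ against repoGFP- cells at 5d and 0 to 1 for repoGFP- cells with age. In TRAP they ran from 2 to 5 for neuron against glia IPs at 34d, 2 to 8 for IP over input in control neurons at 5d, 0 to 5 for Mettl3 RNAi in neurons at 5d, 0 to 4 at 34d, 0 to 4 in glia at 5d and 3 to 7 for the difference of effects at 5d.

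Counts over all genes moved too. Without the replicate block the m6A ratio with age in control heads had 2 calls in place of 2545. DESeq2 called 1139 genes in elavGFP+ cells with age (edgeR 477), 510 in repoGFP- cells with age (105), 690 in repoGFP+ cells with age (11), 457 for Mettl3 RNAi TRAP in neurons at 5d (158) and 346 in glia (67).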

Other observations

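Sorted cells with Mettl3 RNAi in glia were in no comparison above, and their values are given without a test. At 34d, brp had 278, 245 and 205 CPM in repoGFP+ cells with Mettl3 RNAi, and 411, 418 and 279 CPM in repoGFP+ cells with control RNAi. cac had 412, 345 and 413 CPM in those Mettl3 RNAi cells and 508, 687 and 536 CPM in the control cells, and Snap25 had 1088 to 1579 CPM and 1734 to 1838 CPM. The ranges of the other 7 members overlapped between the genotypes, for example 892 to 1205 CPM with Mettl3 RNAi and 909 to 1307 CPM with control RNAi for Syt1, and 707 to 736 CPM and 660 to 837 CPM for Syn. The share of all genes whose ranges lay apart was not determined, for these cells or for the groups below. In repoGFP- cells at 34d, 3 of the 10 members did not overlap either, and these were higher with Mettl3 RNAi in glia. nSyb had 1986 to 2138 CPM with Mettl3 RNAi and 1723 to 1762 CPM with control RNAi. unc-13 had 997 to 1067 CPM and 877 to 985 CPM, and Syn had 935 to 1202 CPM and 772 to 861 CPM. brp had 391 to 439 CPM in those repoGFP- cells with Mettl3 RNAi and 361 to 435 CPM with control RNAi, and the cac ranges overlapped too. Glia markers summed to 9243 to 17024 CPM in repoGFP+ cells with Mettl3 RNAi at 34d and 6014 to 10925 CPM with control RNAi, and neuron markers to 5763 to 6266 CPM and 6236 to 7635 CPM. At 5d, the repoGFP+ ranges of brp overlapped, as did those of cac: brp had 227 to 350 CPM with Mettl3 RNAi and 275 to 313 CPM with control RNAi, and cac had 432 to 489 CPM and 434 to 507 CPM. The repoGFP+ ranges did not overlap for Syt1 (1033 to 1094 CPM with Mettl3 RNAi, 988 to 997 CPM with control RNAi) and Rim (374 to 414 CPM and 417 to 437 CPM). In repoGFP- cells at 5d, Syx1A alone did not overlap (967 to 1004 CPM and 881 to 937 CPM).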
